A study of Homo sapiens with 8 samples.

Results

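NFKB1, NFKB2, RELA, RELB, NFKBIA, NFKBIZ, TNFAIP3, TNIP1 and BIRC3 encode subunits of the transcription factor NF-kB and proteins that restrain or modify its signalling. TNFAIP2, also among the 10 genes read here, is induced by tumour necrosis factor. The 10 genes were chosen by symbol from the 34415 symbols of the count table, and all 10 were found there and passed the filter on low counts. RNA came from HaCaT, a human skin keratinocyte line that became immortal without an introduced oncogene, used at passages 21 to 33 and kept in RPMI-1640 medium. The 2 groups compared hold 4 biological replicates each: siETV4, transfected for 48 h with small interfering RNA (siRNA) against the ETS-family transcription factor ETV4, and siNC, transfected for 48 h with a negative-control siRNA. All 8 cultures had also spent 96 h at 35 mM glucose, so the comparison holds glucose fixed, and cultures at the basal 5.5 mM were not analysed here. The work was done in a single cell line, and the sources used here do not give the siRNA sequences.

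NF-kB proteins act as dimers that are held in the cytoplasm by inhibitors of the IkB family until a signal from tumour necrosis factor (TNF), interleukin-1 or interleukin-17 receptors leads an IkB kinase to mark the inhibitor for destruction. The canonical route releases dimers of RELA with the processed NFKB1 product, and the non-canonical route, driven by the kinase MAP3K14, releases RELB with the processed NFKB2 product. Several of the genes that NF-kB turns on encode its own brakes, among them NFKBIA and TNFAIP3, and in epidermis these brakes limit psoriasis-like inflammation.

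Promoter sequences, from 250 bases before to 50 bases after each RefSeq start (GRCh38.p14), were at hand for 9 of the 10 genes, and for 7 of those 9 at least 1 promoter held a match to the kappaB consensus decamer on either strand. The same was true of 17.1% of the 10809 tested genes with a promoter sequence, and of 11.3% of all 35116 promoter sequences. For ETS factors a single strict string was searched, CCGGAAGT on either strand. It was in 0 of the 9 genes' promoters and in 9.83% of the tested genes' promoters. Shorter or looser ETS strings, such as the aggaagt in the BIRC3 promoter below, were not counted. A match describes letters only and shows no binding. The promoters of 4 genes with kappaB matches are given 5′ to 3′ on the gene's strand, with the matches in capitals (overlapping matches run together), because they are among the best known genes that NF-kB itself turns on. RELA and TNFAIP2 are the genes without a match. The BIRC3 window is chr11:102317234-102317533 on the plus strand, the NFKBIA window chr14:35404700-35404999 on the minus strand, the TNFAIP3 window chr6:137867009-137867308 on the plus strand, and the NFKB2 start shown, the second of 3, chr10:102394328-102394627 on the plus strand.
BIRC3: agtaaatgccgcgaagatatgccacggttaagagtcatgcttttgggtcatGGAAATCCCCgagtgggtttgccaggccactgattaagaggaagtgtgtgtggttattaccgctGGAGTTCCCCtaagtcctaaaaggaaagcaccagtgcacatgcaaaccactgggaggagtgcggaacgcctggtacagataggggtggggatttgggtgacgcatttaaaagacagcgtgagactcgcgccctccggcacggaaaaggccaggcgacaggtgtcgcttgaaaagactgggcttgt
NFKBIA: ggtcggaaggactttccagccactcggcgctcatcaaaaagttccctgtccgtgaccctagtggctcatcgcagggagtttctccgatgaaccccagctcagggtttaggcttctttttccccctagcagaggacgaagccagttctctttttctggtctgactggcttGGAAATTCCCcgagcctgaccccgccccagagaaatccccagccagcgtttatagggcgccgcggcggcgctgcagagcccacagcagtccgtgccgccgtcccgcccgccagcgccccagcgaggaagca
TNFAIP3: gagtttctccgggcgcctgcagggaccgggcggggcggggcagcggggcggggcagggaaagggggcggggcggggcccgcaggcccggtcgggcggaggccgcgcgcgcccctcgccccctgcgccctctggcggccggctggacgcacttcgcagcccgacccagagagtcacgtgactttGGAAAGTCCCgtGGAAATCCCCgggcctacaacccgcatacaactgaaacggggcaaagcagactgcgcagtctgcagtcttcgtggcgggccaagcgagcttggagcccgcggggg
NFKB2: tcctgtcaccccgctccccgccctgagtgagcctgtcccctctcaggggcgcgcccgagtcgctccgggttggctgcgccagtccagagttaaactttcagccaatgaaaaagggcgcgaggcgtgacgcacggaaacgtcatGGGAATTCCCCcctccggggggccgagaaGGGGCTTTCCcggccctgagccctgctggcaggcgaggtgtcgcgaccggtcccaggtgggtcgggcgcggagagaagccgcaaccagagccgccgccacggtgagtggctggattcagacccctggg
Counted from the start, the NFKBIA decamer begins at -81, the TNFAIP3 pair at -67 and -55, and the BIRC3 pair at -199 and -135. No promoter sequence was at hand for RELB.

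Each library held between 35057643 and 41657753 counts. ETV4 itself stood at 2.61 ± 0.547 CPM (counts scaled to a common library total after TMM; SD, n = 4) in siETV4 libraries and 28.2 ± 5.64 CPM in siNC libraries, and its groups did not overlap (DHX8 overlaps it on the opposite strand). Keratinocyte markers were present in every library (KRT5 at 454 to 583 FPKM, counts over library total and gene length), whereas 6 leukocyte markers summed to 0.282 to 0.595 FPKM in siETV4 libraries and 0.432 to 0.638 FPKM in siNC libraries, with PTPRC at 0 in all 8. Of 3 endothelial markers, CDH5 was at 3.15 to 5.17 FPKM and PECAM1 at 0.00682 FPKM or less. The libraries also differed in a way that did not follow the siRNA groups alone: each library's deviation from the mean of all 8 followed the GC content of transcripts across genes, with Spearman's rho of -0.65, 0.21, -0.58 and 0.02 in siETV4 replicates 1 to 4 and 0.56, 0.53, 0.64 and -0.60 in siNC replicates 1 to 4. siNC replicate 4 thus stood with siETV4 replicates 1 and 3 and apart from the other siNC libraries. Where leaving it out changed a call for a named gene, the value without it is given as well.

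Per length, TNFAIP2 was the most abundant of the 10 genes and TNFAIP3 the least. TNFAIP2 averaged 363 ± 20.5 FPKM in siETV4 libraries and 371 ± 29.7 FPKM in siNC libraries (SD, n = 4 each), above 98.8% of the tested genes. NFKBIA, next in order, averaged 107 ± 4.22 FPKM in siETV4 libraries and 104 ± 2.30 FPKM in siNC libraries. RELA averaged 47.5 ± 2.35 FPKM in siETV4 libraries and 52.3 ± 4.00 FPKM in siNC libraries. By siNC means, the order below RELA was TNIP1, NFKB1, NFKB2, RELB, NFKBIZ, BIRC3 and TNFAIP3. By siETV4 means, NFKB1 (31.99 FPKM) stood above TNIP1 (28.1 FPKM) and BIRC3 (6.57 FPKM) above NFKBIZ (5.41 FPKM). RELA was therefore the most abundant and RELB the least abundant of the 4 subunit genes among the 10. RELB was at 13.6 ± 0.521 FPKM in siETV4 libraries and 11.6 ± 1.90 FPKM in siNC libraries. REL, a subunit gene outside the 10, was lower still, at a mean of 1.46 FPKM over the 8 libraries. TNFAIP3 averaged 3.65 ± 0.653 FPKM in siETV4 libraries and 3.16 ± 0.408 FPKM in siNC libraries, and ranked above 44.2% of the tested genes. Neighbours in the siNC order had separate ranges in both groups except TNIP1 with NFKB1, NFKBIZ with BIRC3, and, in siNC alone, BIRC3 with TNFAIP3. In the siETV4 order TNIP1 and NFKB2 were neighbours, and their siETV4 ranges just overlapped (TNIP1 from 27.04 FPKM, NFKB2 up to 27.06 FPKM). TNIP1 exceeded NFKB1 in 4 of the 8 libraries and NFKBIZ exceeded BIRC3 in 4 of the 8.

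**Figure D1:**
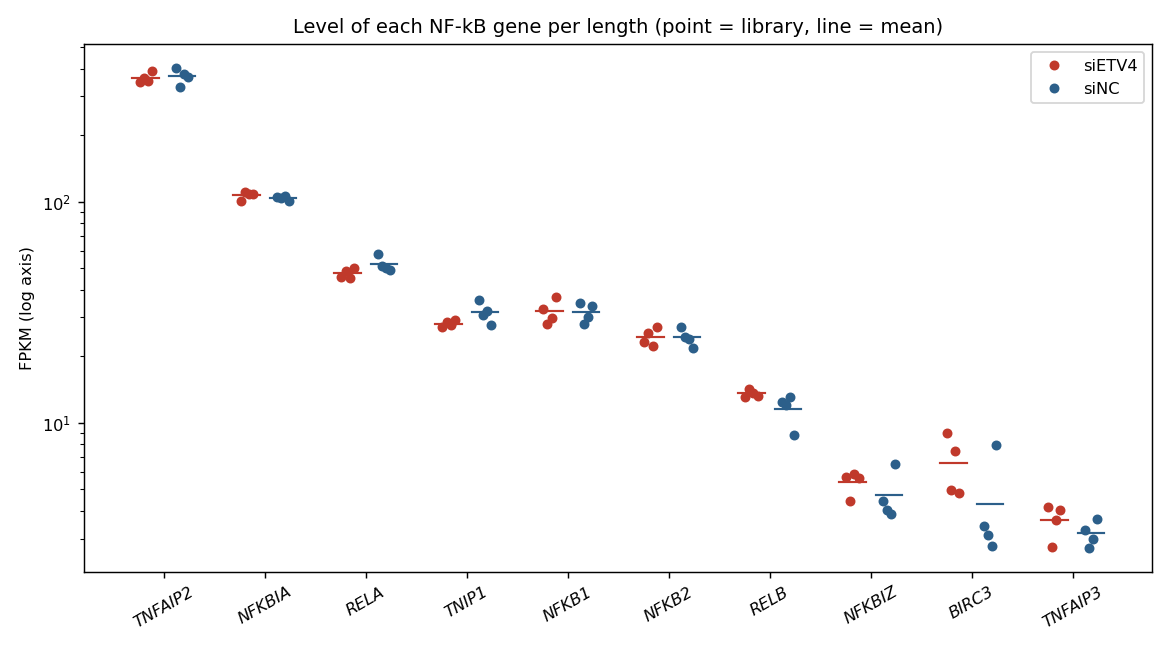
Level of each of the 10 genes in FPKM on a log axis, with 1 point per library (siETV4 left, siNC right, n = 4 each) and lines at the means. TNFAIP2 lies near 363 FPKM and TNFAIP3 near 3.65 FPKM in siETV4, and TNIP1 and NFKB1 share their range.

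The comparison of siETV4 with siNC asks whether the messages of NF-kB parts and brakes changed when ETV4 was lowered in high glucose. With all 8 libraries and no trend removed, none of the 10 genes passed: 0 of 10 had an edgeR adjusted p under 0.05, against 32 of the 13572 genes tested (0.236%). DESeq2 also called 0 of the 10, against 1.64% of all genes. At an unadjusted p under 0.05 edgeR had 1 of the 10, TNIP1, against 12.6% of all genes tested, and DESeq2 had 0, against 13.6%. The groups overlapped for all 10 genes, while 6.55% of genes tested had groups that did not overlap. In log2 fold change, siETV4 minus siNC, 4 genes were positive and 6 negative, with a median of -0.02 beside -0.01 over all genes tested, and 4 of the negative genes (NFKB1, NFKB2, NFKBIA and TNFAIP2) changed sign under at least 1 alternative setting. In these bulk libraries, fewer cells with a message and less message per cell cannot be told apart.

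**Figure D2:**
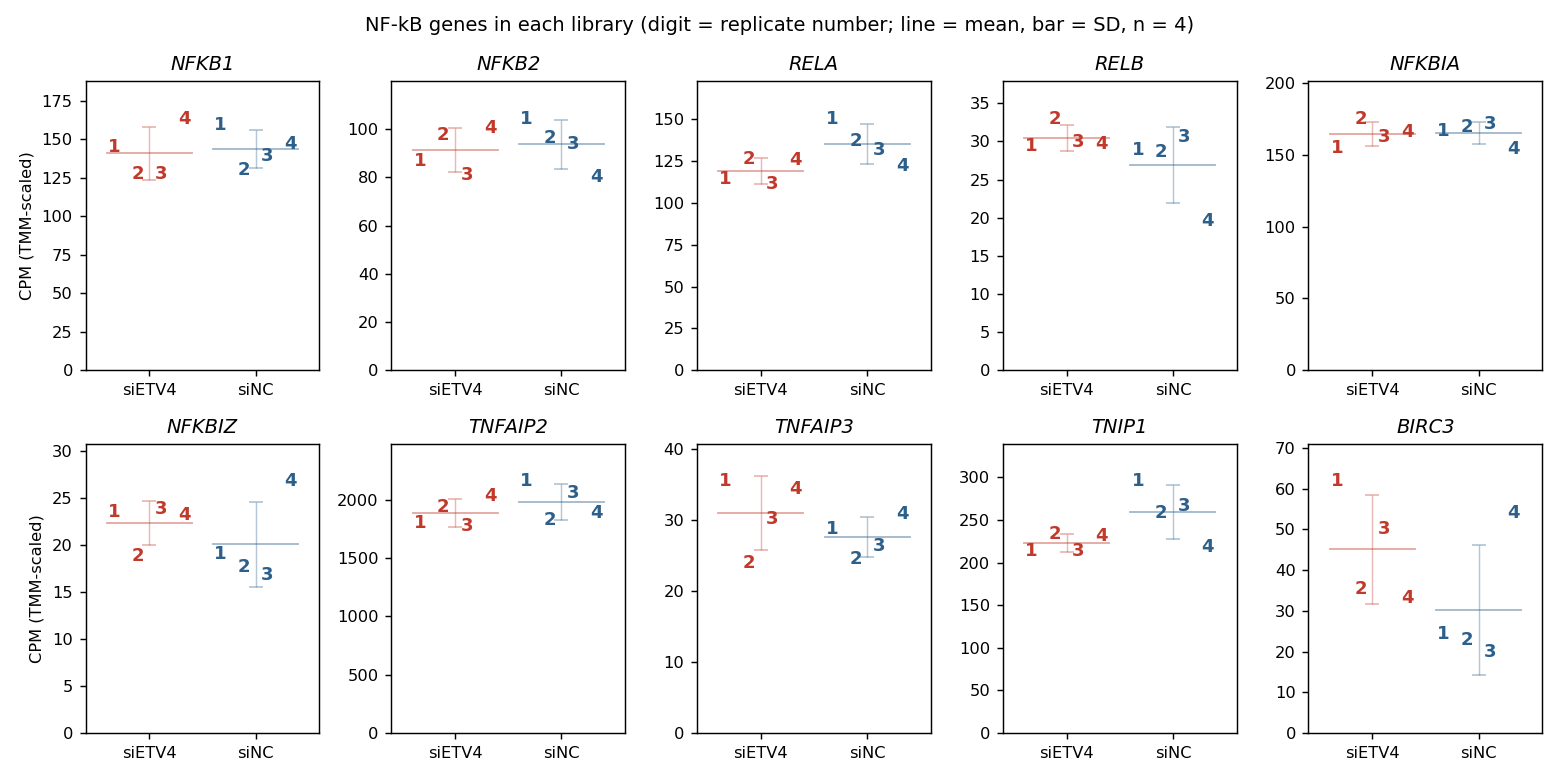
TMM-scaled CPM of each gene in each library, siETV4 left and siNC right; digits are replicate numbers, lines are means and bars are SD (n = 4 each), and axes start at 0. siNC replicate 4 stands apart from the other siNC libraries in RELB (19.6 CPM) and BIRC3 (54.1 CPM).

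Among the subunits, RELA was lower and RELB higher in siETV4 on average, and neither passed. RELA (chromosome 11, 65653601 to 65663857 in hg38, as are the positions that follow) encodes the subunit with the main activating domain of the canonical dimer. It had 114, 126, 111 and 125 CPM in siETV4 libraries, against 150.4, 137, 132 and 122 CPM in siNC libraries. The siETV4 values lay below 3 of the 4 siNC libraries, and siNC replicate 4 fell within their range. The log2 fold change was -0.18 (SE 0.09, 95% confidence interval -0.38 to 0.02, edgeR adjusted p 0.437).

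RELB (chromosome 19, 45001464 to 45038192) encodes the activating subunit of the non-canonical dimer. It had 29.4, 32.98, 29.9 and 29.7 CPM in siETV4 libraries, against 28.8, 28.6, 30.6 and 19.6 CPM in siNC libraries. Apart from siNC replicate 4, the lowest of the 8, the libraries lay between 28.6 and 32.98 CPM and the groups overlapped. Its log2 fold change was 0.18 (SE 0.14, interval -0.14 to 0.50, edgeR adjusted p 0.605).

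NFKB1 and NFKB2 encode precursors whose unprocessed forms also act as inhibitors. NFKB1 (chromosome 4, 102501359 to 102617302) had 145, 128, 127 and 163 CPM in siETV4 libraries, against 159, 130.1, 139 and 147 CPM in siNC libraries. NFKB2 (chromosome 10, 102394110 to 102402529) had 86.7, 97.6, 81.0 and 100.4 CPM in siETV4 libraries, against 104, 96.3, 93.6 and 80.2 CPM in siNC libraries. For each gene the 2 ranges nearly coincided. The log2 fold change was -0.03 for NFKB1 (SE 0.11, interval -0.26 to 0.20, edgeR adjusted p 0.910) and -0.03 for NFKB2 (SE 0.11, interval -0.27 to 0.20, edgeR adjusted p 0.907), so a change beyond these bounds was not detected for either.

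The gene of the classical inhibitor had nearly equal means under both siRNAs. NFKBIA (chromosome 14, 35401513 to 35404749) encodes IkB-alpha, the inhibitor that is resynthesized after each pulse of NF-kB activity. It had 155, 175, 163 and 166 CPM in siETV4 libraries, against 167, 169.6, 171 and 154 CPM in siNC libraries. The siNC range lay within the siETV4 range but for its lowest library. With a log2 fold change of -0.01 (SE 0.08, interval -0.18 to 0.17, edgeR adjusted p 0.979), NFKBIA also had the smallest coefficient of variation over the 8 libraries of the 10 genes, 4.52%.

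NFKBIZ (chromosome 3, 101827990 to 101861022) encodes a nuclear member of the IkB family that works mainly as a cofactor for a subset of NF-kB and interleukin-17 target genes, so the word inhibitor describes it poorly. It had 23.5, 18.8, 23.8 and 23.2 CPM in siETV4 libraries, against 19.0, 17.7, 16.7 and 26.7 CPM in siNC libraries. siNC replicate 4 was the highest of all 8, and siETV4 replicate 2 lay among the other siNC libraries. For NFKBIZ the log2 fold change was 0.16 (SE 0.16, interval -0.20 to 0.51, edgeR adjusted p 0.689).

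The 3 genes whose products act on ubiquitin chains differed in direction, and none passed with all 8 libraries. TNFAIP3 (chromosome 6, 137866349 to 137883312) encodes a ubiquitin-editing enzyme that stops signalling from TNF and interleukin-1 receptors. It had 35.4, 23.9, 30.1 and 34.3 CPM in siETV4 libraries, against 28.8, 24.4, 26.4 and 30.8 CPM in siNC libraries. The log2 fold change was 0.16 (SE 0.14, interval -0.15 to 0.48, edgeR adjusted p 0.633), and siETV4 held both the highest and the lowest library. An antisense gene annotated by GENCODE overlaps TNFAIP3 over 1046 bases, and without a stated strand setting the reads of the pair cannot be told apart.

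TNIP1 (chromosome 5, 151029943 to 151087685) encodes a ubiquitin-binding partner of TNFAIP3. It had 214, 233, 213 and 231 CPM in siETV4 libraries, against 295, 259, 267 and 219 CPM in siNC libraries. The siETV4 libraries lay below siNC replicates 1 to 3, and siNC replicate 4 lay among them. In log2 fold change this was -0.22 (SE 0.10, interval -0.44 to -0.00, unadjusted p 0.0468, edgeR adjusted p 0.393).

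BIRC3 (chromosome 11, 102317484 to 102339403) encodes a ubiquitin ligase that promotes canonical signalling below the TNF receptor and, with its partners, degrades MAP3K14 in the non-canonical route. It had 61.8, 35.3, 50.2 and 33.1 CPM in siETV4 libraries, against 24.4, 22.7, 19.9 and 54.1 CPM in siNC libraries. Every siETV4 library lay above siNC replicates 1 to 3, and siNC replicate 4 was the second highest of the 8. BIRC3 had a log2 fold change of 0.57, the largest in size of the 10 (SE 0.31, interval -0.10 to 1.25, edgeR adjusted p 0.460), and the coefficient of variation over the 8 libraries, 41.97%, was also the largest.

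TNFAIP2 (chromosome 14, 103121469 to 103137439) is induced by TNF and encodes a protein known for membrane protrusions between cells, and it is not an established inhibitor of NF-kB. It had 1799, 1937, 1774 and 2030.5 CPM in siETV4 libraries, against 2158, 1823, 2058 and 1885 CPM in siNC libraries. The ranges overlapped over most of their length. TNFAIP2 had a log2 fold change of -0.07 (SE 0.09, interval -0.27 to 0.12, edgeR adjusted p 0.736).

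Which genes passed depended on siNC replicate 4 and on the GC content trend. With that library left out, rho was 0.53 to 0.64 in siNC and -0.65 to 0.21 in siETV4, without overlap. In fits without it that keep the trend, here and below, the siRNA and the trend therefore cannot be told apart. Without siNC replicate 4, TNIP1 fell (log2 fold change -0.30, SE 0.08, edgeR adjusted p 0.0313) and BIRC3 rose (1.01, SE 0.19, edgeR adjusted p 0.00935), 2 of 10 genes where 16.9% of all genes passed. The groups of 3 genes, RELA, TNIP1 and BIRC3, then did not overlap, where those of 28.7% of genes did not. BIRC3 stood at 45.1 ± 13.5 CPM (SD, n = 4) in siETV4 and 22.3 ± 2.28 CPM (SD, n = 3) in siNC without replicate 4, and at 30.3 ± 16.0 CPM (SD, n = 4) in siNC with it.

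Once each library's trends with GC content and length were removed, and with all 8 libraries kept, RELB rose (log2 fold change 0.35, SE 0.08, edgeR adjusted p 0.0467), 1 of 10 genes where 1.76% of all genes passed. RELB then had log2 CPM values of 5.06, 4.95, 5.06 and 4.95 in siETV4 libraries, against 4.64, 4.70, 4.76 and 4.51 in siNC libraries. Its groups did not overlap in these values, which held for 10% of genes and for none of the other 9. BIRC3 then had log2 CPM values of 5.49, 5.25, 5.41 and 5.17 in siETV4 libraries, against 4.82, 4.85, 4.72 and 5.27 in siNC libraries. It did not pass (log2 fold change 0.40, SE 0.12, edgeR adjusted p 0.127). TNIP1 had a log2 fold change of -0.05 there (edgeR adjusted p 0.740). With the trends removed and siNC replicate 4 left out as well, RELB (0.31, SE 0.08, edgeR adjusted p 0.0406) and BIRC3 (0.54, SE 0.09, edgeR adjusted p 0.00480) rose, where 6.44% of all genes passed.

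**Figure D3:**
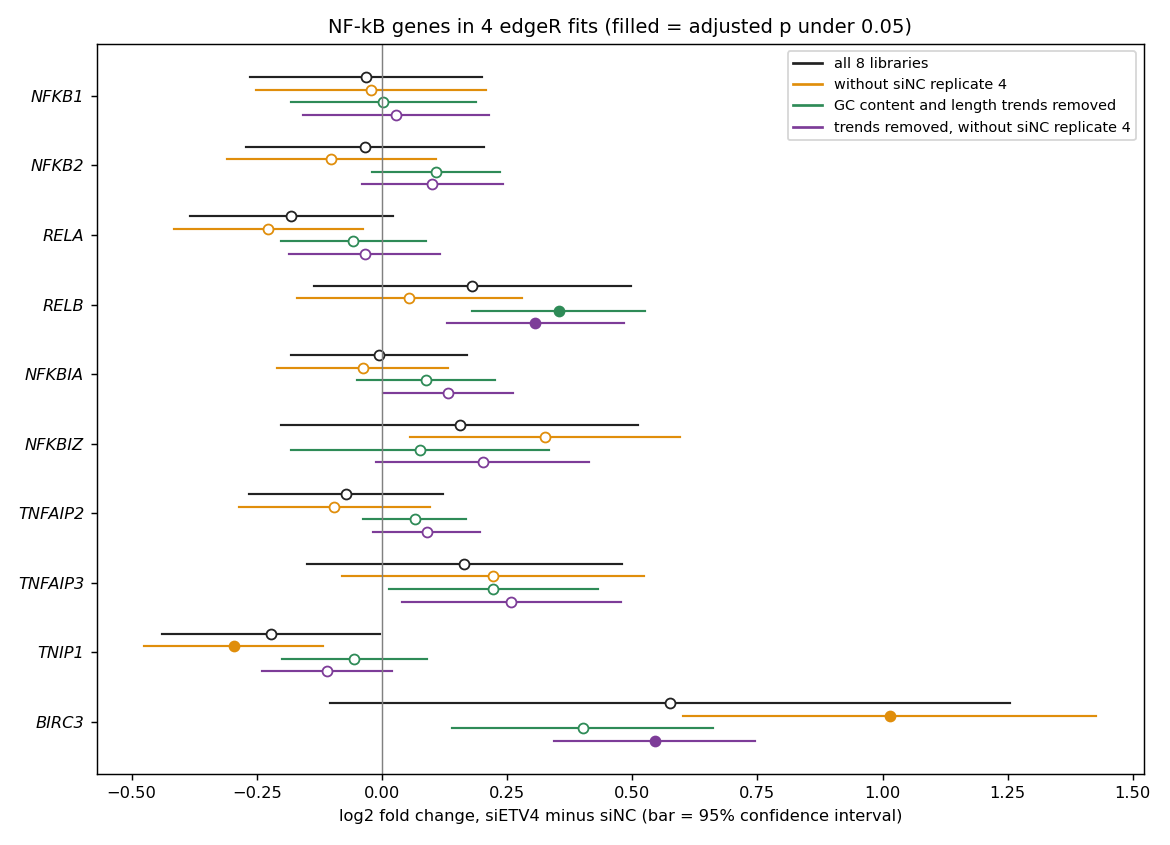
Log2 fold change (siETV4 minus siNC) of each gene with its 95% confidence interval in 4 edgeR fits, filled where the adjusted p was under 0.05. With all 8 libraries and no trend removed no point is filled; BIRC3 is filled in both fits without siNC replicate 4, TNIP1 in 1 of these, and RELB in both fits with the trends removed.

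The GC content of a gene's longest transcript spanned the 10 genes widely, at 34.8% for BIRC3, 46.2% for NFKBIZ, 57.1% for RELA, 59.2% for TNIP1 and 65.4% for RELB. In 6 of the 10 genes, the 3 libraries with a negative rho (siETV4 replicates 1 and 3 and siNC replicate 4) did not overlap the other 5. BIRC3 and NFKBIZ were higher in those 3 libraries, and NFKB2, RELA, NFKBIA and TNIP1 were lower. NFKB1, RELB, TNFAIP2 and TNFAIP3 overlapped between these sets. Over all genes tested, 29.5% separated in this way, and the part of the GC content trend in the differences between siETV4 and siNC was not tested beyond the fits with it removed.

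Within the 3 libraries with a negative rho, BIRC3 had 61.8 and 50.2 CPM in the siETV4 libraries and 54.1 CPM in the siNC library, and within the other 5 it had 35.3 and 33.1 CPM in siETV4 libraries and 19.9 to 24.4 CPM in siNC libraries. The higher level of BIRC3 in siETV4 was therefore present within the second set and not within the first, where siNC had a single library. For TNIP1 the first set had 214 and 213 CPM in its siETV4 libraries and 219 CPM in its siNC library, and the second 233 and 231 CPM in siETV4 libraries and 259 to 295 CPM in siNC libraries. RELB differed more within the first set than within the second. Within the first set its siETV4 libraries had 29.4 and 29.9 CPM and siNC replicate 4 had 19.6 CPM, and within the second its siETV4 libraries had 32.98 and 29.7 CPM and its siNC libraries 28.6 to 30.6 CPM, where the groups overlapped. Within the second set the trend with GC content still differed between the groups, with rho of 0.21 and 0.02 in siETV4 libraries and 0.53 to 0.64 in siNC libraries. The siRNA and the trend cannot be told apart there. No test was run within these sets.

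**Figure D4:**
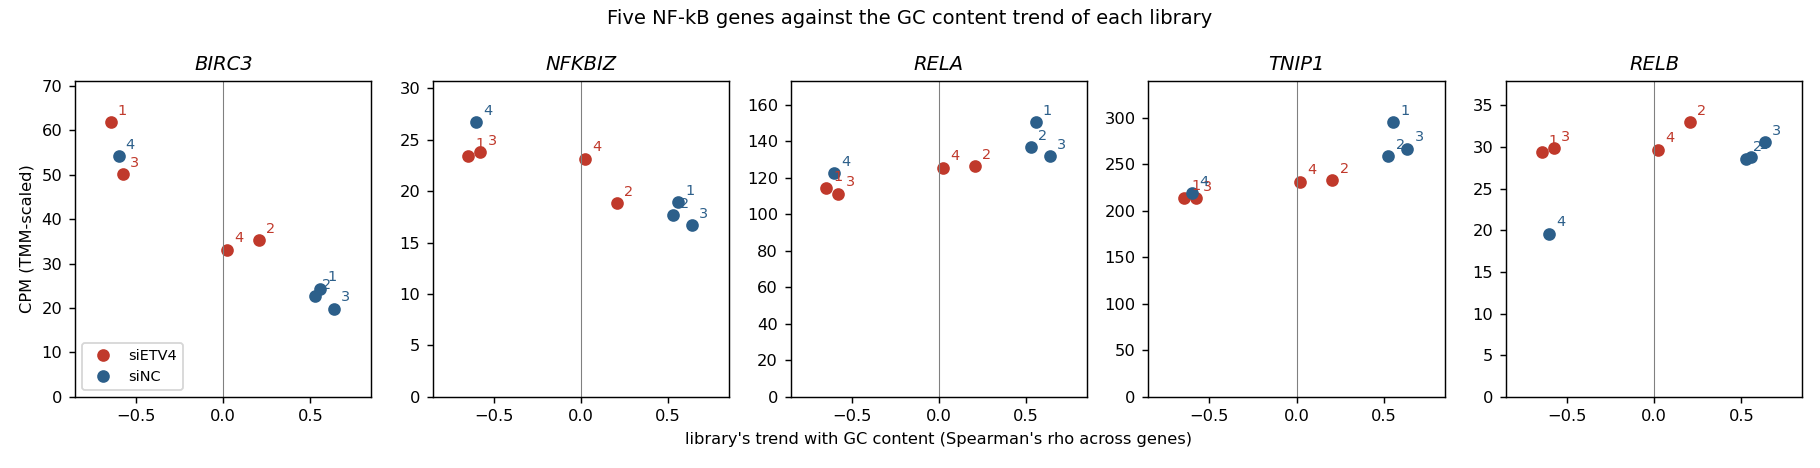
CPM of 5 genes in each library against that library's trend with GC content (Spearman's rho across genes), siETV4 in red and siNC in blue with replicate numbers. BIRC3 is at 50.2 to 61.8 CPM in the 3 libraries at the left, siNC replicate 4 among them, and RELB is at 19.6 CPM in siNC replicate 4.

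Across the 8 libraries the 10 genes fell into unlike patterns. The most alike pair in log2 CPM was RELA with TNIP1 (Pearson's r 0.95), followed by NFKBIZ with BIRC3 (0.88), while BIRC3 and TNIP1 ran most opposite (-0.89). NFKB2 was most like RELA (0.78) and RELB most like NFKBIA (0.70). The 5 tested genes most like TNIP1, the gene with the smallest p of the 10, were PRKD2, CD276, GNAS, E4F1 and VAC14, with r of 0.98 to 0.99 over 8 libraries. These values describe 8 libraries that share the GC content trend given above, and no p is attached to them.

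Genes around NF-kB were read from 5 lists of 105 distinct genes, 98 of them tested, of which 1 passed with all 8 libraries. Receptors and ligands showed no call among 19 tested genes, and their median log2 fold change was 0.06. IL1R1, the signalling receptor of interleukin-1, averaged 1.22 ± 0.290 CPM in siETV4 libraries and 0.604 ± 0.215 CPM in siNC libraries (SD, n = 4 each; log2 fold change 1.01, SE 0.37, edgeR adjusted p 0.332), with groups that did not overlap. IL1A, an alarmin ligand stored by keratinocytes, averaged 21.6 ± 5.79 CPM in siETV4 libraries and 13.97 ± 5.08 CPM in siNC libraries (0.63, SE 0.26, edgeR adjusted p 0.378), with siNC replicate 4 at 20.7 CPM. Without that library IL1A rose (0.88, edgeR adjusted p 0.0206), but not with the trends removed as well (edgeR adjusted p 0.0864). TNFRSF1B, a TNF receptor, had a log2 fold change of -0.56 (SE 0.29). The most abundant, per length, were TNFRSF12A, the receptor of the TNF-family ligand TWEAK, at 244 FPKM in siETV4 and 223 FPKM in siNC, and TNFRSF1A, the main TNF receptor, at 77.9 FPKM in siETV4 and 84.8 FPKM in siNC, and neither passed with all 8 libraries. TNFRSF12A passed with the trends removed and siNC replicate 4 left out (0.21, edgeR adjusted p 0.0442).

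No adaptor, ubiquitin ligase or kinase passed either, among 19 and 13 tested, with medians of -0.00 and 0.08. IRAK1, a kinase of the interleukin-1 receptor complex, was the most abundant adaptor-list gene at 201 FPKM in siETV4 and 253 FPKM in siNC (log2 fold change -0.38, SE 0.12, edgeR adjusted p 0.276). Without siNC replicate 4 it fell, both with the trends kept (-0.47, edgeR adjusted p 0.0103) and with them removed (-0.27, edgeR adjusted p 0.0116). TRAF3IP2, the adaptor of interleukin-17 receptors, had 44.04, 45.04, 44.1 and 49.7 CPM in siETV4 libraries, against 57.3, 54.0, 56.2 and 54.5 CPM in siNC libraries. Its groups did not overlap and siNC replicate 4 lay with its group. The edgeR adjusted p was 0.291 with all 8 libraries, 0.0488 without siNC replicate 4 and 0.0467 with the trends removed, where it fell by 0.33 on the log2 scale. IRAK4, the partner kinase of IRAK1, had a log2 fold change of 0.43 (SE 0.19), and rose without siNC replicate 4 (0.66, edgeR adjusted p 0.0115) but not with the trends removed as well (edgeR adjusted p 0.139). RBCK1, a subunit of the linear ubiquitin ligase, had a log2 fold change of -0.09 (SE 0.10).

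MAP3K14, the kinase that drives the RELB and NFKB2 route, had 25.5, 30.3, 23.8 and 32.2 CPM in siETV4 libraries, against 40.8, 35.6, 35.7 and 31.8 CPM in siNC libraries. The lowest siNC library, replicate 4, lay just below the highest siETV4 library. Its log2 fold change was -0.36 (SE 0.13, edgeR adjusted p 0.335), and it passed without siNC replicate 4 (edgeR adjusted p 0.0393) but not with the trends removed (edgeR adjusted p 0.184). Of the other kinase genes, MAP3K3 had a log2 fold change of -0.20 (SE 0.11), TAB1, a partner of the kinase MAP3K7, -0.18 (SE 0.12), and IKBKE, an IkB kinase relative, -0.02 (SE 0.11).

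The other subunits, IkB proteins and brakes, 19 genes tested, had 0 calls and a median log2 fold change of -0.02. The 3 with the smallest p had positive log2 fold changes: RNF11, a partner of TNFAIP3 (0.42, SE 0.12, edgeR adjusted p 0.235), CYLD, a deubiquitinase (0.47, SE 0.17, edgeR adjusted p 0.327), and NKRF, a nuclear repressor of NF-kB targets (0.31, SE 0.14, edgeR adjusted p 0.397). All 3 passed without siNC replicate 4 (edgeR adjusted p 0.0105, 0.0124 and 0.0227 in the same order) and none did with the trends removed. Without that library 5 genes of this list passed, all higher, as did 4 receptors and ligands, all higher. So did 3 adaptors or ligases higher and 3 lower, and 2 kinases higher and 1 lower. Over all genes 16.9% then passed in either direction, 12% higher and 4.88% lower. In siNC replicate 4, RNF11 stood at 53.4 CPM and CYLD at 30.1 CPM, while the other siNC libraries held 38.3 to 46.5 CPM of RNF11 and 18.4 to 21.02 CPM of CYLD. TAX1BP1, an adaptor that brings TNFAIP3 to its substrates, had a log2 fold change of 0.41 (SE 0.20), and rose without siNC replicate 4 whether the trends were kept (0.66, edgeR adjusted p 0.0116) or removed (0.64, edgeR adjusted p 0.0120). ZC3H12A, an endonuclease that degrades inflammatory messages, had a log2 fold change of -0.10 (SE 0.10).

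Of 29 target genes of NF-kB tested, 1 passed with all 8 libraries, the T-cell chemokine CCL5. CCL5 had 13.6, 16.3, 14.4 and 13.3 CPM in siETV4 libraries, against 7.59, 6.69, 7.68 and 5.52 CPM in siNC libraries, without overlap. It rose (log2 fold change 1.07, SE 0.15, edgeR adjusted p 0.0163), where 0.118% of all genes passed in that direction. Leaving out siETV4 replicate 1, 2 or 3 or siNC replicate 1 or 2 took the edgeR adjusted p to between 0.0532 and 0.0806, with log2 fold changes of 1.00 to 1.12. Adding the replicate number as a term in the fit took the edgeR adjusted p to 0.108. The list's median log2 fold change was 0.25, with 21 genes positive and 8 negative, beside -0.01 over all genes tested. At an unadjusted p under 0.05 there were 15 of the 29, 13 higher and 2 lower, where 12.6% of all genes had such a p. The list was chosen with earlier results of these libraries known, so its direction is not independent evidence.

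The next targets by p were the monocyte chemokine CCL2 and the neutrophil chemokine CXCL8. CCL2 had 119, 115, 134 and 106 CPM in siETV4 libraries, against 77.9, 81.0, 78.6 and 91.0 CPM in siNC libraries (log2 fold change 0.53, SE 0.10, edgeR adjusted p 0.0623). CXCL8 had 38.8, 30.2, 33.5 and 30.8 CPM in siETV4 libraries, against 19.9, 16.7, 15.5 and 23.4 CPM in siNC libraries (0.82, SE 0.15, edgeR adjusted p 0.0623). For these 2 genes every siETV4 library lay above every siNC library, siNC replicate 4 included. Both passed without siNC replicate 4 (edgeR adjusted p 0.00584 for CCL2 and 0.00333 for CXCL8) and with the trends removed (0.0223 for each). With the trends removed, 9 target genes passed, all higher in siETV4 (CXCL8, CCL2, CCL5, ICAM1, SOD2, PLAU, LCN2, SAA1 and IL32), where 0.882% of all genes passed in that direction. Without siNC replicate 4, 10 passed higher and 1 lower, where 12% and 4.88% of all genes did. LCN2, an iron-binding antimicrobial protein, and the syndecan SDC4 were the most abundant per length. Their log2 fold changes with all 8 libraries were 0.37 (SE 0.09, edgeR adjusted p 0.143) and -0.05 (SE 0.09, edgeR adjusted p 0.818). LCN2 passed without siNC replicate 4 (0.31, edgeR adjusted p 0.0220) and with the trends removed (0.49, edgeR adjusted p 0.0145).

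**Figure D5:**
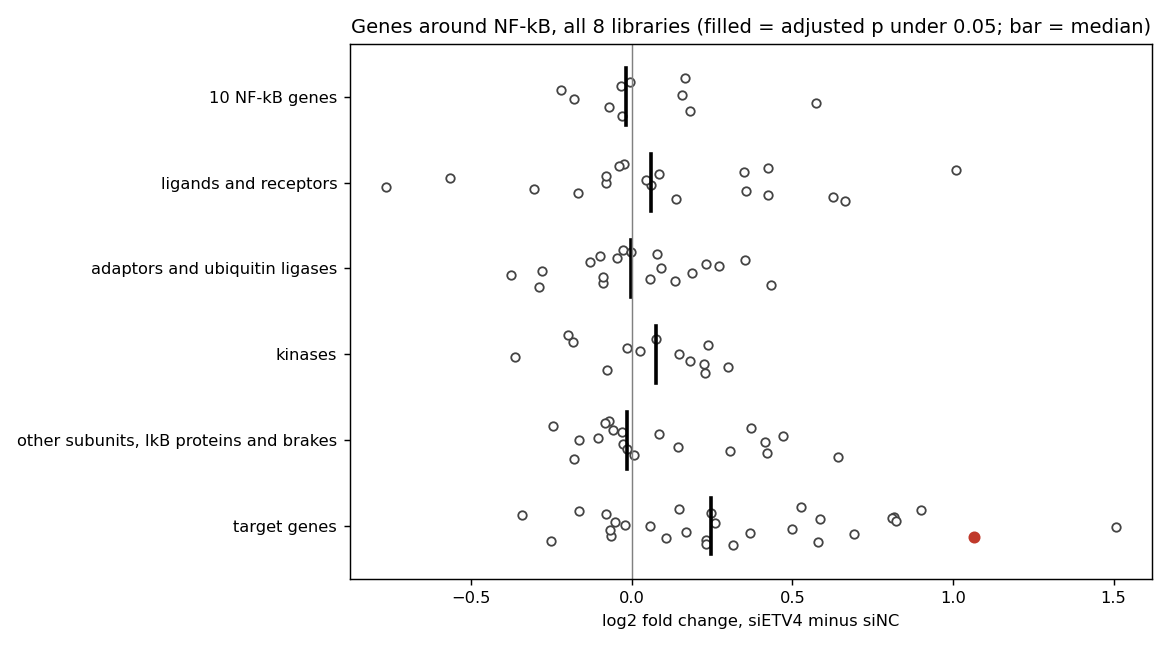
Log2 fold change (siETV4 minus siNC, all 8 libraries) of the 10 genes and of the 5 lists around NF-kB, with 1 point per gene, a bar at each median and filled points where the edgeR adjusted p was under 0.05. CCL5 in the target list (1.07) is the single filled point, and the target list has a median of 0.25.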

How the data were processed

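RNA of 8 HaCaT cultures, 4 siETV4 and 4 siNC, was sequenced, and the titles gave each library's group. Deposited by the authors were raw read counts per gene symbol, and FPKM values that equal the count over the library's total and a gene length (for 20584 of 20585 genes above 0 the length was constant within a relative tolerance of 1e-06). Per the submitters' processing notes the build was hg38 and R 3.2.0 was used. The sources used here do not name the aligner, counter, annotation or strand setting.

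Counts were tested in R 4.3.3 with edgeR 4.0.16: filterByExpr (minimum count 10, leaving 13572 genes), TMM scaling, the siRNA as the only term, the quasi-likelihood test, Benjamini-Hochberg adjustment across every tested gene and a threshold of 0.05. Levels between genes were compared as FPKM. The trend of each library's log2 CPM with GC content (longest GENCODE transcript) and length was fitted with splines of 5 degrees of freedom and entered as offsets, which was possible for 12470 genes (91.9%) and all 10 members. DESeq2 1.42.0 and limma 3.58.1 served as alternatives. The tests were checked on simulated counts with 200 genes changed. There edgeR recovered 20.6% of the 1.5-fold changes and 72.5% of the 2-fold changes. With the libraries' GC content trends added to the simulated counts, it recovered 11.1% and 56.5%. The simulated scatter was estimated from libraries that already hold these trends. The trends were thus counted again here, and these lower rates do not describe the power of these data. Changes of 1.5-fold were thus mostly missed, so the absence of a call alone does not show the absence of such a change. For the 10 genes the 95% confidence intervals say more. With all 8 libraries and no trend removed, only that of BIRC3 (-0.10 to 1.25 on the log2 scale) reached a 1.5-fold change. Named genes beyond the 10 are ETV4 and, from each list, the 3 with the smallest p, the 2 with the highest FPKM and any past the threshold. REL is named as a subunit gene outside the 10. Other genes named among calls, and the genes most like TNIP1 by r, follow from their values. The 10 genes, the lists and the alternatives were chosen with earlier results of these data known.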

Additional observations from a re-analysis of the deposited data

Results flagged for a closer look

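In 68 groups of 4 libraries (34 genes in siETV4 and in siNC), 5 held a library whose gap to its nearest neighbour took up most of the group's range (above Dixon's 95% critical value). Chance flags about 1 in 20 such groups. In siNC replicate 4, BIRC3 had 54.1 CPM where siNC replicates 1 to 3 had 19.9 to 24.4 CPM. The other 4 cases were all siETV4 replicate 2, the library of that group with the most positive trend with GC content (rho 0.21). It was the highest of its group in RELB, at 33 CPM with the others at 29.4 to 29.9 CPM, and in TNFRSF12A, at 288 CPM with the others at 215 to 220.5 CPM. It was the lowest in NFKBIZ, at 18.8 CPM with the others at 23.2 to 23.8 CPM, and in NKRF, at 40.9 CPM with the others at 51.0 to 52.4 CPM. The part of the GC content trend in these values was not tested.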

How the results depend on the processing

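Across 22 alternatives RELA and TNIP1 kept a negative and RELB, NFKBIZ, TNFAIP3 and BIRC3 a positive log2 fold change; RELB passed in 2, BIRC3 in 2 and TNIP1 in 1. The number of the 10 genes past the threshold, 0 with all libraries, was 1 with GC content and length offsets and 0 to 2 when 1 library was left out, with 2 for siNC replicate 4. Over all genes the count of 32 became 54 without a filter, 223 with DESeq2, 219 with the offsets, 59 with log2(FPKM + 1) or log2(FPKM + 0.1) in limma and 60 at an adjusted p under 0.1, 9 to 2327 with 1 library left out, and 811 with the offsets and without siNC replicate 4. The list genes past it, 1 in the report, numbered 3 without a filter, 7 with DESeq2, 2 with limma-voom, 10 with the offsets, 5 with log2(FPKM + 1) or log2(FPKM + 0.1), 2 with unfiltered FPKM, 4 at an adjusted p under 0.1, 0 to 28 with 1 library left out, and 17 with the offsets and without siNC replicate 4.

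The labels do not say whether the replicate numbers pair the samples. Correlations of same-numbered deviations were -0.19 to 0.30, and those of differently numbered ones -0.40 to 0.39. The deviations carry the GC content trend, so these correlations cannot settle whether the samples were paired. A replicate block gave 4 genes in all, 0 of the 10 and 0 list genes, and with the offsets 100 genes and 6 list genes; RELB then had an edgeR adjusted p of 0.0916, CCL2 0.0686, CXCL8 0.0726 and TRAF3IP2 0.125, each past the threshold with the offsets alone. The block alone took CCL5 to 0.108.

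Signs turned where changes were near 0, and the cause was not tested. With library size alone NFKB1 was 0.0114, NFKB2 0.0109, NFKBIA 0.0384 and IKBKE 0.0292. With the offsets NFKB1 was 0.0030, NFKB2 0.1075, NFKBIA 0.0880, TNFAIP2 0.0653, RBCK1 0.0606, IKBKE 0.1156 and ZC3H12A 0.0331. With the block as well they were 0.0044, 0.1071, 0.0907, 0.0664, 0.0627, 0.1162 and 0.0345 in the same order. NFKBIA was 0.0084 with RLE factors and 0.0085 with DESeq2. In the 3 FPKM fits NFKB1 was 0.0087 or 0.0088, NFKB2 0.0109 or 0.0113, NFKBIA 0.0374 or 0.0377 and IKBKE 0.0292 or 0.0315. With 1 library left out, log2 fold changes ranged for NFKB1 from -0.1120 to 0.0208, for NFKB2 from -0.1011 to 0.0226, for NFKBIA from -0.0386 to 0.0221, for TNFAIP2 from -0.1099 to -0.0279, for TNFRSF12A from -0.0394 to 0.1503, for RBCK1 from -0.1696 to -0.0529, for IKBKE from -0.0836 to 0.0433 and for ZC3H12A from -0.1500 to -0.0536. With the offsets and without siNC replicate 4 they were NFKB1 0.0279, NFKB2 0.1007, NFKBIA 0.1318, TNFAIP2 0.0895, RBCK1 0.0336, IKBKE 0.1032 and ZC3H12A 0.0617.

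With 4 libraries a group, the confidence interval on the log2 scale was narrowest for NFKBIA (-0.18 to 0.17) and widest for BIRC3 (-0.10 to 1.25).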

Other observations

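Ratios within a library do not depend on the scaling between libraries. A library's trend with GC content does not cancel where the genes differ in GC content (RELB 65.4%, RELA 57.1%, NFKBIA 53.1%). The ratio of RELB to RELA, in FPKM, was 0.288, 0.292, 0.301 and 0.265 in siETV4 libraries, against 0.215, 0.234, 0.260 and 0.179 in siNC libraries, so every siETV4 library lay above every siNC library. The ratio of NFKBIA to RELA was 2.22, 2.27, 2.39 and 2.16 in siETV4 libraries, against 1.81, 2.03, 2.12 and 2.06 in siNC libraries, which also did not overlap. For 5.78% of the other 13571 tested genes the ratio to RELA was likewise higher in every siETV4 library. Both ratios share RELA as their denominator, they were chosen after the values were seen, and they were not tested. The ratio of NFKB2 to NFKB1 was 0.773 ± 0.0896 in siETV4 libraries and 0.773 ± 0.0950 in siNC libraries (SD, n = 4 each).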
